A study of Mus musculus with 18 samples.

Results

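The 10 genes described here encode regulators of cytokinesis and of the contractile ring: *Anln*, *Ect2*, *Racgap1*, *Prc1*, *Cit*, *Cep55*, *Rhoa*, *Rock1*, *Rock2* and *Diaph3*. They were chosen by symbol for what their products are known to do, with earlier results of these data known, from a table that lists 55450 mouse genes. All 10 were present in the table and passed the filter on low counts in each comparison. The samples were ED1SQ4 cells, a murine lung cancer line derived from mice that carry a cyclin E transgene, so every group shared the line and its cyclin E overexpression. Cells were exposed for 72 hours to vehicle or to 0.5 µM CYC065, an inhibitor of CDK2 and CDK9, and RNA was taken from unsorted cells, from cells sorted for a 2N DNA content and from cells sorted for a 4N DNA content after staining with Vybrant DyeCycle Green. This gives 6 conditions. The 4N gate selects by DNA content alone, so cells of the starting ploidy that are in G2 or mitosis and polyploid cells enter it together, and one cell line was used throughout.

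Each condition has 3 columns of values, which the labels call replicates and number as parts of the same library. Those columns differed by no more than sampling noise over genes with whole counts, with a chi-square per degree of freedom of 0.992 to 1.02, against 54.1 to 1233 between conditions. They were therefore summed and counted as 1 library per condition, so no comparison has a biological replicate and no p-value is given. Column totals ranged from 18246493 to 20933929 counts. Levels are given as CPM, counts scaled to the size of their library, with trimmed mean of M values (TMM) factors over the 6 libraries. Each difference is a log2 ratio of such levels with its 95% counting interval in square brackets, which covers counting error only, and a gene was called where the ratio passed 2-fold. Markers fixed for the tissue did not match a lung epithelium: *Nkx2-1* and *Scgb1a1* had 0 counts in every library, while *Col1a1* ranged from 2742 to 5731 CPM and *Vim* from 2091 to 4766 CPM.

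Cytokinesis separates daughter cells once the chromosomes have moved apart. The spindle midzone, bundled by PRC1 and kinesins, recruits centralspindlin, whose RACGAP1 subunit binds the exchange factor ECT2. ECT2 activates the small GTPase RhoA beneath the membrane, and RhoA in turn engages formins, the ROCK kinases and citron kinase to assemble and constrict an actomyosin ring, to which anillin ties septins, actin and myosin. CEP55 then gathers the abscission machinery at the midbody. When these steps fail after mitosis, the cell keeps both sets of chromosomes in a single body, which is one known route to polyploidy. Many genes of late mitosis are transcribed mainly in G2 and M, and the CHR element, often beside CCAAT boxes, is a known promoter element of such genes.

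The sequences around the start sites are shown first because the members whose levels moved with treatment and DNA content did not all carry the same letters there. RefSeq promoter sequences on GRCm38.p6, reaching 250 bases before and 50 after the start, were matched to 9 of the 10 genes, with *Rock1* the exception. The CHR was searched as TTTGAA or TTCGAA and the CCAAT box as CCAAT, each on both strands. In the stretches with a CHR, capitals mark the CHR, or TTCAAA where it lies on the other strand, and any CCAAT box or its reverse complement ATTGG. The stretches are chr3:27153967-27154032 (minus strand) for *Ect2*, chr7:80294406-80294471 (plus) for *Prc1*, chr9:22389177-22389225 (minus) for *Anln*, chr15:99651627-99651691 (minus) for *Racgap1* and chr19:38054968-38055013 (plus) for *Cep55*, each written 5′ to 3′ in the direction of transcription.
Ect2: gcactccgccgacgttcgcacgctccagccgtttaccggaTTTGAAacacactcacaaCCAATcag
Prc1: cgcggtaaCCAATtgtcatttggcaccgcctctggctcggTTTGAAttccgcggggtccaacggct
Anln: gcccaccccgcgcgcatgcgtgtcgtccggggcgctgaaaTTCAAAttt
Racgap1: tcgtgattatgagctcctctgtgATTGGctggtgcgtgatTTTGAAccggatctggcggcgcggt
Cep55: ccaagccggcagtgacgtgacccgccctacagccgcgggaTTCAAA

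For contrast, the bases from 45 before to 20 after the start are shown for the other 4 matched genes, at chr5:115845611-115845676 (plus) for *Cit*, chr14:87141204-87141269 (minus) for *Diaph3*, chr9:108306115-108306180 (plus) for *Rhoa* and chr12:16894933-16894998 (plus) for *Rock2*. No CHR was found anywhere in their windows, and capitals again mark CCAAT boxes.
Cit: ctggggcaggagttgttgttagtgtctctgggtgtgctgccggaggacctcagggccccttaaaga
Diaph3: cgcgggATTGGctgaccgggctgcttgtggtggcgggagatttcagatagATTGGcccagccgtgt
Rhoa: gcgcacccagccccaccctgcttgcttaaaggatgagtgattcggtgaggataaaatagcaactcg
Rock2: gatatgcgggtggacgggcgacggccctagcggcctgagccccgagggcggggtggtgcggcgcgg

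From the first start listed for each gene, the CHR shown began at base −114 for *Ect2*, −5 for *Prc1*, 5 for *Racgap1*, 21 for *Anln* and 24 for *Cep55*. A further CHR began at base 39 for *Ect2* and 28 for *Anln*. From a second listed start, the CHR shown began at −138 for *Ect2*, −30 for *Prc1* and −33 for *Cep55*. *Rhoa* also has a second listed start, and its stretch above is from the first. A CHR was thus found in 5 of 9 members, as compared with 21.7% of 27025 genes with a promoter in the table, and a CCAAT box in 4 of 9 (*Diaph3*, *Ect2*, *Prc1* and *Racgap1*), as compared with 41.1%. None of the 4 E2F letters searched (TTTCCCGC, TTTGGCGC, TTTCGCGC and TTTGCCGC) was found in a member, and 2.61% of genes held one. Of the lists of related genes, the 4 midzone kinesins with a matched promoter all held a CHR, as did 6 of 7 genes of the G2/M list. A CHR was found in 2 of 3 genes of the passenger complex with *Plk1*, 1 of 3 formins and scaffolds, 2 of 6 septins, 2 of 8 S-phase genes, 2 of 12 ESCRT genes, 1 of 8 RhoA regulators and relatives, and 1 of 9 myosin II genes, which was *Myl12b*. These matches describe letters in a window and were not tested for activity.

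**Figure D1:**
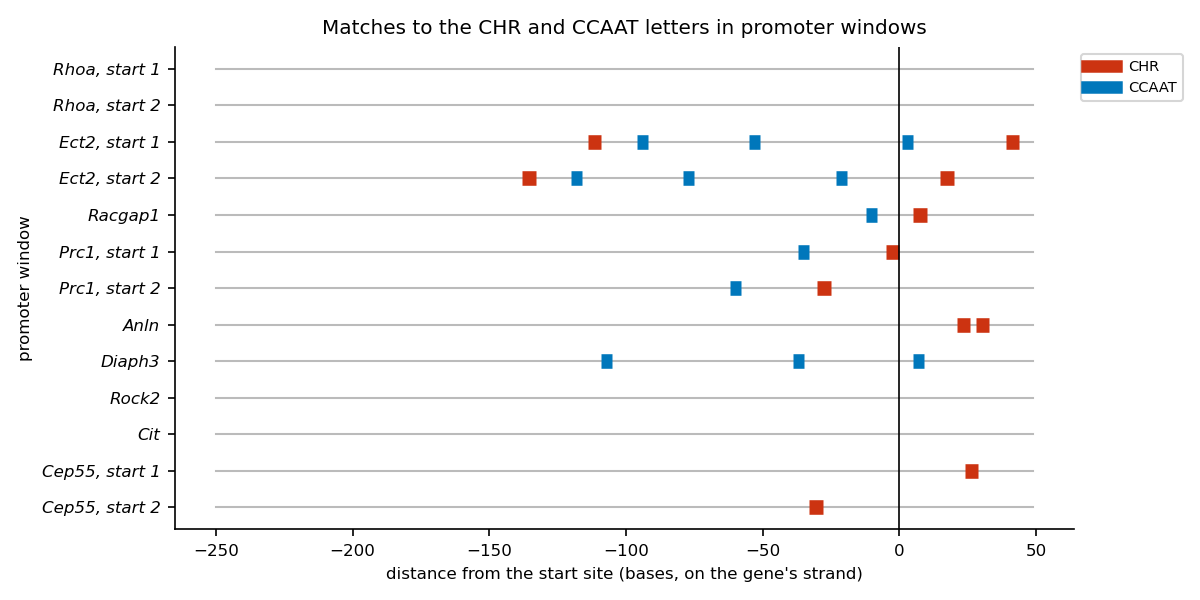
Positions of CHR and CCAAT matches on either strand in RefSeq promoter windows of the matched members, by distance from the start site in bases. CHR matches are drawn for *Anln*, *Cep55*, *Ect2*, *Prc1* and *Racgap1* and for none of the other 4 genes.

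Levels of the 10 genes fell into a wide and a narrow range over the 6 libraries. The SD of log2 CPM over libraries was 0.60 for *Anln*, 0.67 for *Racgap1*, 0.70 for *Cit*, 0.71 for *Ect2*, 0.76 for *Diaph3*, 0.85 for *Cep55* and 0.89 for *Prc1*. It was 0.17 for *Rhoa*, 0.15 for *Rock2* and 0.14 for *Rock1*, whereas the median over 9259 genes with enough counts was 0.28. In bulk RNA, fewer cells in a phase that uses a gene and less RNA of that gene per cell cannot be told apart. The summed level of 8 G2/M genes moved with most of the members, at 2468, 2305 and 3399 CPM in unsorted, 2N and 4N cells with vehicle and 866, 760 and 1895 CPM with CYC065, and its part in the results below was not tested. *Top2a* and *Mki67* had the highest counts of that list and weighed most in the sum. The log2 ratio of CYC065 to vehicle was below 0 for 7 of the 8 genes in 2N and in 4N cells. *Ccnb2* went the other way there, at 0.35 and 0.28, and was at −0.97 in unsorted cells. The 10 genes of an S-phase list summed to 1484, 2135 and 1854 CPM with vehicle and 462, 807 and 864 CPM with CYC065, so they were lower with CYC065 in each fraction, and highest in 2N cells with vehicle and in 4N cells with CYC065.

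**Figure D2:**
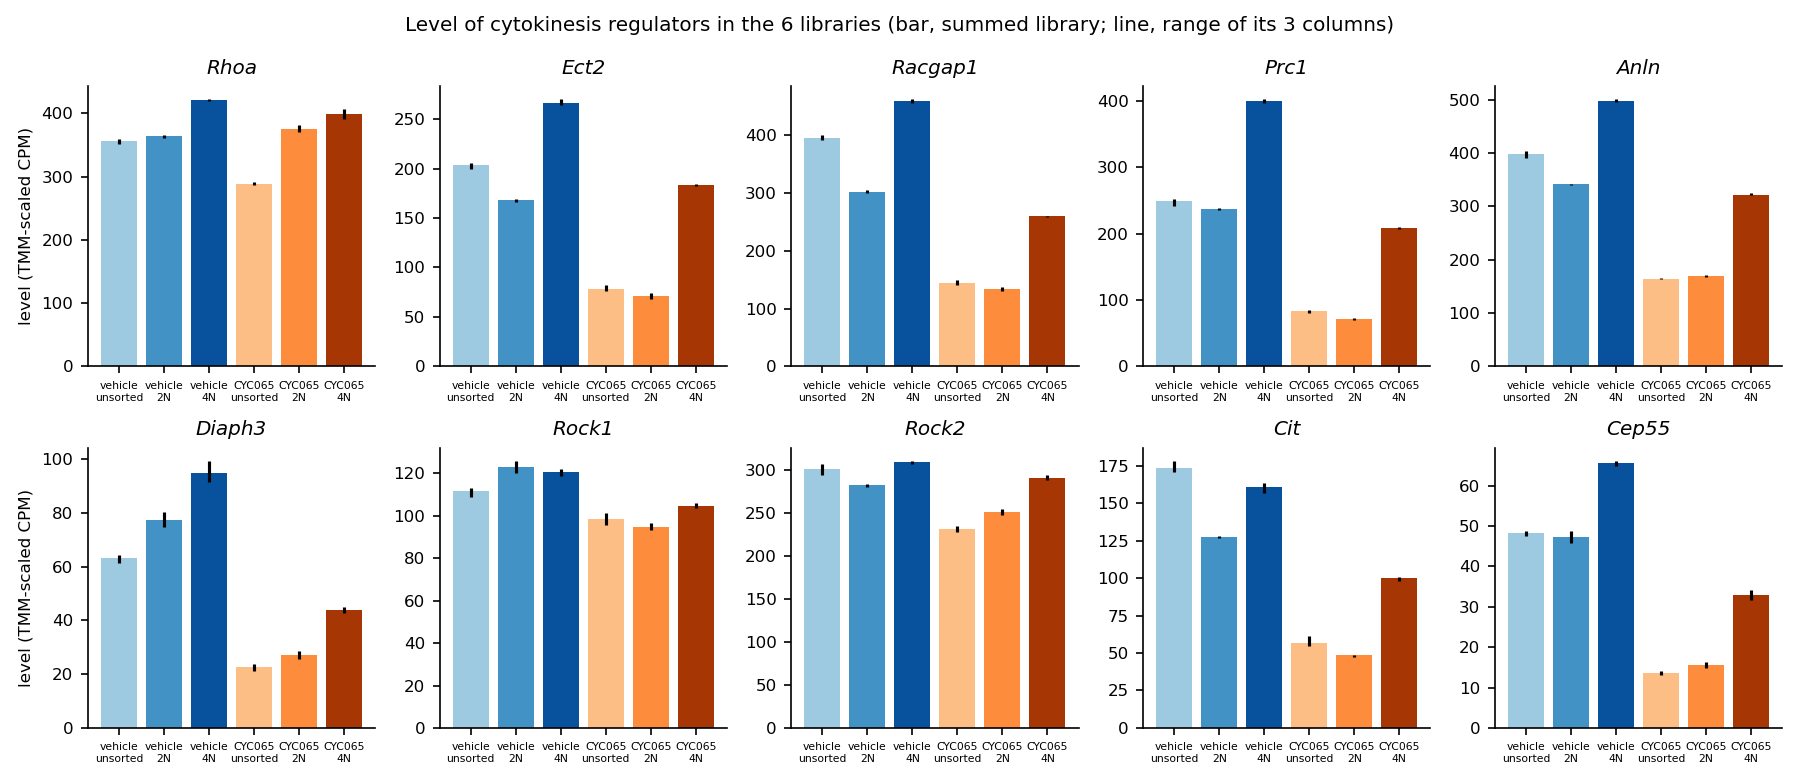
Level of each member in the 6 libraries, in TMM-scaled CPM on axes that start at 0 and differ between genes; bars are summed libraries and black lines span the 3 columns of each. *Anln*, *Ect2*, *Racgap1*, *Prc1*, *Cit*, *Cep55* and *Diaph3* were lower with CYC065 in each cell fraction, while *Rhoa*, *Rock1* and *Rock2* stayed within a 1.46-fold range.

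Regulators that act upstream of RhoA were examined first. *Prc1* (chr7:80294450-80316259, plus strand, mm10), the microtubule bundler of the midzone, was at 249, 237 and 399.8 CPM in unsorted, 2N and 4N cells with vehicle and at 82.8, 71.4 and 209 CPM with CYC065. It had the widest range of the 10, 5.6-fold from the highest to the lowest library, and each CYC065 level lay below every vehicle level. The share of all genes with such a separation was not counted. Overlap is therefore given here and below only as a description of each gene. The log2 ratio of CYC065 to vehicle was −1.73 [−1.78, −1.68] in 2N cells, −0.94 [−0.97, −0.91] in 4N cells and −1.59 [−1.64, −1.54] in unsorted cells.

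*Racgap1* (chr15:99620496-99651656, minus strand), the centralspindlin subunit, was at 396, 302 and 459 CPM with vehicle and at 145, 134 and 259.9 CPM with CYC065, in the same order of fractions. All 3 CYC065 levels again lay below all 3 vehicle levels, with log2 ratios of −1.17 [−1.21, −1.14] in 2N, −0.82 [−0.85, −0.79] in 4N and −1.45 [−1.49, −1.41] in unsorted cells. *Ect2* (chr3:27097222-27153878, minus strand), the exchange factor that RACGAP1 binds, was at 203, 168 and 266 CPM with vehicle and at 78.5, 70.8 and 183 CPM with CYC065. Here the groups overlapped, since 4N cells with CYC065 exceeded 2N cells with vehicle. Its log2 ratios were −1.24 [−1.30, −1.19], −0.54 [−0.57, −0.51] and −1.37 [−1.42, −1.32] in 2N, 4N and unsorted cells.

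These partners did not keep one proportion. The CPM ratio of *Ect2* to *Racgap1* was 0.514, 0.555 and 0.579 in unsorted, 2N and 4N cells with vehicle and 0.542, 0.529 and 0.705 with CYC065, so it was highest in 4N cells with CYC065. The ratio of *Prc1* to *Racgap1* was 0.629, 0.784 and 0.870 with vehicle and 0.571, 0.533 and 0.804 with CYC065, highest in 4N cells under either treatment.

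*Rhoa* (chr9:108306129-108337934, plus strand), the GTPase itself, was at 356, 364 and 421 CPM with vehicle and at 288, 375 and 399 CPM with CYC065. The vehicle and CYC065 levels overlapped. The log2 ratio was 0.041 [0.013, 0.069] in 2N cells, −0.30 [−0.33, −0.27] in unsorted cells and −0.077 [−0.10, −0.052] in 4N cells, where the sign turned when libraries were scaled by their totals (0.065). Expected counts of *Rhoa* were fractional in all 18 columns, as the authors' counting shared some of its reads with other loci, so its small differences are uncertain. *Racgap1* was fractional in 14 columns, *Diaph3* in 4 and *Rock1* in 2.

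Of the kinases and the formin that RhoA engages, *Cit* and *Diaph3* moved with treatment far more than *Rock1* and *Rock2*. *Cit* (chr5:115845278-116008947, plus strand), citron kinase, was at 173, 128 and 161 CPM with vehicle and at 57.0, 48.4 and 99.8 CPM with CYC065. Its highest level was in unsorted vehicle cells rather than in 4N cells, and the treatments did not overlap. The log2 ratio was −1.40 [−1.46, −1.34] in 2N, −0.69 [−0.74, −0.65] in 4N and −1.61 [−1.66, −1.55] in unsorted cells. *Diaph3* (chr14:86655367-87141235, minus strand), a formin that nucleates and elongates actin filaments, was at 63.0, 77.4 and 94.7 CPM with vehicle and at 22.6, 27.1 and 44.0 CPM with CYC065. The treatments did not overlap, and *Diaph3* had the largest difference of the members within 4N cells, with log2 ratios of −1.51 [−1.60, −1.43] in 2N, −1.10 [−1.17, −1.04] in 4N and −1.48 [−1.57, −1.39] in unsorted cells.

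*Rock1* (chr18:10064401-10182045, minus strand), a kinase that phosphorylates the myosin regulatory pathway, was at 112, 123 and 121 CPM with vehicle and at 98.7, 94.8 and 105 CPM with CYC065. Its paralog *Rock2* (chr12:16894895-16987823, plus strand) was at 302, 283 and 309 CPM with vehicle and at 231, 251 and 292 CPM with CYC065. With TMM factors *Rock1* levels did not overlap between treatments, and *Rock2* levels did. The *Rock1* gap was small, at 0.094 [0.045, 0.14] in log2 between unsorted vehicle cells and 4N cells with CYC065. Scaling by library totals turned that order (6396 of 58885931 counts against 7075 of 62795451). The log2 ratios of *Rock1* were −0.38 [−0.43, −0.33], −0.21 [−0.25, −0.16] and −0.18 [−0.23, −0.12] in 2N, 4N and unsorted cells. Those of *Rock2* were −0.17 [−0.20, −0.14], −0.086 [−0.12, −0.057] and −0.39 [−0.42, −0.35], of which the 4N value turned to 0.056 under library totals. *Rock2* exceeded *Rock1* by 2.30 to 2.79 times in CPM in each library.

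At the ring and the midbody, *Anln* (chr9:22332012-22389188, minus strand), the anillin scaffold, was at 398, 341 and 497 CPM with vehicle and at 164, 170.1 and 322 CPM with CYC065. With TMM factors the treatments did not overlap, by a log2 gap of 0.083 [0.055, 0.11] between 2N vehicle cells and 4N cells with CYC065. Scaling by library totals turned that order (19148 of 57877319 counts against 21782 of 62795451), so the separation is uncertain. The log2 ratio of CYC065 to vehicle was −1.0 [−1.04, −0.97] in 2N cells, which only just passed 2-fold, −0.63 [−0.65, −0.60] in 4N cells and −1.28 [−1.32, −1.25] in unsorted cells. The CPM ratio of *Anln* to *Rhoa* ranged from 0.936 to 1.2 with vehicle and from 0.454 to 0.806 with CYC065, so it did not overlap. *Cep55* (chr19:38055011-38074423, plus strand), the midbody protein that recruits ESCRT factors, was at 48.3, 47.2 and 65.6 CPM with vehicle and at 13.6, 15.5 and 32.8 CPM with CYC065. The treatments did not overlap, and its ratios of −1.61 [−1.72, −1.5] in 2N, −1.0 [−1.08, −0.93] in 4N and −1.83 [−1.95, −1.72] in unsorted cells included the lowest of any member in unsorted cells.

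Within each gene, nearly all neighbours in the order of levels differed beyond counting error. That error leaves out the sharing of reads between loci, which bears on *Rhoa* and *Racgap1*. It also leaves out the choice of scaling, which moved log2 ratios of members by up to 0.14, so small steps are uncertain. The exceptions were *Cep55* in unsorted and 2N vehicle cells, with a log2 difference of 0.034 [−0.044, 0.11], and *Rock1* in 2N and 4N vehicle cells, with 0.030 [−0.019, 0.078]. To compare genes, levels were divided by the length of the union of exons. That union spans all annotated transcripts, for example 7.49 kb over 5 for *Rhoa* and 7.08 kb over 14 for *Racgap1*. It can exceed the length of the transcripts expressed, so the order of genes may depend on this choice. In 2N cells with vehicle, *Rhoa* was highest at 48.6 CPM per kb, followed by *Racgap1* at 42.7 and *Anln* at 37.6, and *Rock1* was lowest at 6.80. In the other vehicle libraries *Racgap1* exceeded *Rhoa*, at 55.9 against 47.5 CPM per kb in unsorted cells and 64.9 against 56.2 in 4N cells. With CYC065, *Rhoa* was again highest in 2N cells, at 50 CPM per kb, *Racgap1* at 18.9 and *Anln* at 18.8, and *Cit* was lowest at 2.95.

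CYC065 was set against vehicle within each fraction to ask which members differed with treatment at a fixed DNA content. In 2N cells 7 of 10 members were called lower, where 13.3% of the 14090 genes tested were, and the median log2 ratio of the members was −1.21 as compared with −0.071 over all genes. In 4N cells 2 members, *Cep55* and *Diaph3*, were called lower, where 11.5% of 14183 genes were, with medians of −0.66 and −0.031. In unsorted cells 7 were called lower against 14% of 14082 genes, with medians of −1.41 and −0.072. The 7 called in 2N and in unsorted cells were *Anln*, *Cep55*, *Cit*, *Diaph3*, *Ect2*, *Prc1* and *Racgap1*, of which *Cit* and *Diaph3* held no CHR in the windows shown above. None was called higher in any fraction, where 14.9% of genes were in 2N, 14.2% in 4N and 11.8% in unsorted cells. *Cep55* in 4N and *Anln* in 2N cells lay at the threshold, and scaling by library totals took both below it (−0.86 for each) along with *Diaph3* in 4N cells (−0.96).

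**Figure D3:**
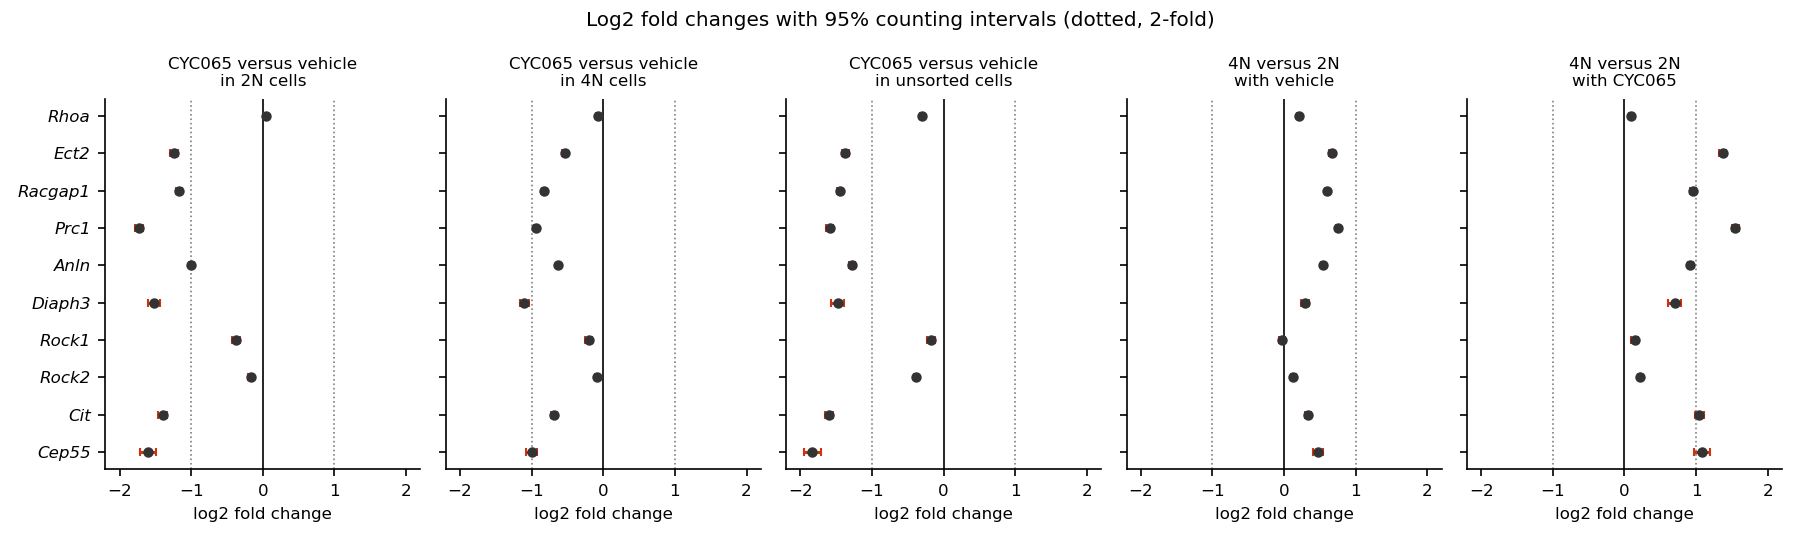
Log2 fold changes (x axis) of each member for CYC065 against vehicle in 2N, 4N and unsorted cells and for 4N against 2N cells with vehicle and with CYC065; points are ratios of single libraries, red bars 95% counting intervals and dotted lines 2-fold. The median of the members for CYC065 against vehicle was −1.21 in 2N and −0.66 in 4N cells, as compared with −0.071 and −0.031 over all genes. The 4N values of *Rhoa* and *Rock2*, −0.077 and −0.086, turned to 0.065 and 0.056 under library totals.

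The 4N fraction was then set against the 2N fraction within each treatment. With vehicle, no member passed 2-fold, where 1.03% of 13365 genes were called higher and 1.69% lower, and the median of the members was 0.41 as compared with 0.0083 over all genes. The largest ratio was that of *Prc1* at 0.76 [0.73, 0.79], and the smallest those of *Rock2* at 0.13 [0.099, 0.16] and *Rock1* at −0.030 [−0.078, 0.019]. With CYC065, 4 members were called higher in 4N cells, where 1.6% of 14180 genes were, and none lower, where 2.05% were, with medians of 0.94 and 0.021. These were *Prc1* at 1.55 [1.5, 1.60], *Ect2* at 1.37 [1.32, 1.42], *Cep55* at 1.08 [0.97, 1.2] and *Cit* at 1.04 [0.98, 1.11]. *Racgap1* at 0.96 [0.92, 1.0] and *Anln* at 0.92 [0.89, 0.95] lay just under 2-fold, *Diaph3* was at 0.70 [0.61, 0.79], and *Rhoa*, *Rock1* and *Rock2* were between 0.091 and 0.21.

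The difference between these ratios, CYC065 minus vehicle, asks whether the gap between 4N and 2N cells was wider under the inhibitor. It passed 2-fold for no member, where 3.58% of 14482 genes passed it upwards and 3.45% downwards. The difference was positive for 9 members, where it was for 52.6% of all genes tested. The median of the members was 0.39 as compared with 0.019 over all genes. The values were 0.79 [0.73, 0.85] for *Prc1*, 0.71 [0.63, 0.79] for *Cit*, 0.70 [0.64, 0.77] for *Ect2* and 0.61 [0.47, 0.74] for *Cep55*, and the other positive ones ranged from 0.083 to 0.41. *Rhoa* was the exception at −0.12 [−0.16, −0.081]. In 4N cells with CYC065 the levels of *Prc1*, *Anln*, *Racgap1*, *Cit*, *Cep55* and *Diaph3* still lay below those of 2N cells with vehicle, and that of *Ect2* lay above. The gap of *Anln* was only 0.083 in log2, and its order turned under library totals.

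**Figure D4:**
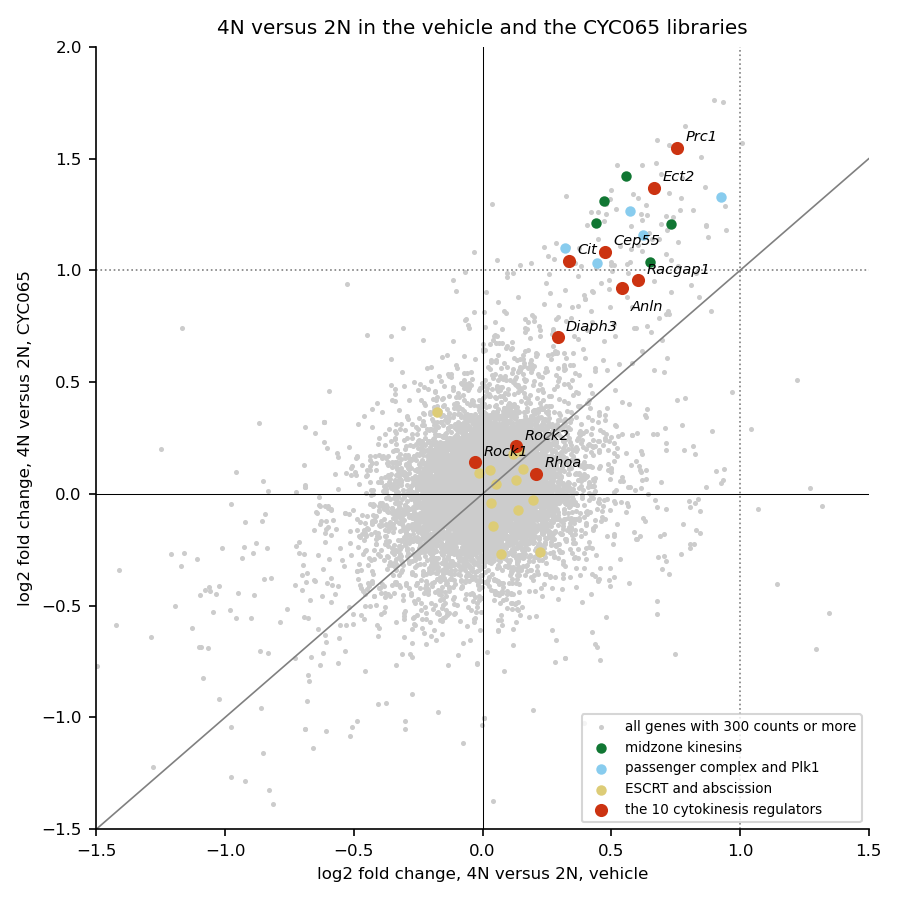
Log2 ratio of 4N to 2N cells with vehicle (x axis) and with CYC065 (y axis), each from single libraries; red points are the members, green, blue and yellow points the midzone kinesins, the passenger complex with *Plk1* and the ESCRT list, and grey points other genes; genes shown had 300 counts or more in at least 1 library of each ratio, and some may lie outside the axes. The diagonal marks equal ratios and dotted lines 2-fold. *Prc1* and *Ect2* sit highest of the members at 1.55 and 1.37, and *Rhoa* is the member below the diagonal.

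The unsorted level of each member was also set beside its sorted levels. With vehicle 6 members lay between the 2N and 4N levels, *Cit* lay above both fractions, and *Diaph3*, *Rhoa* and *Rock1* lay below both. With CYC065, 5 members lay between and *Anln*, *Cep55*, *Diaph3*, *Rhoa* and *Rock2* lay below both. Of 14762 genes, 15.6% lay between the sorted levels with vehicle, 41.3% above both and 43.2% below both. With CYC065 these shares were 18.4%, 38.2% and 43.4%, so the share of members below both was near that of all genes. The 2N and 4N levels of most genes were close together. The unsorted cells may include cells outside both gates, and they did not pass through the sorter. Neither difference was tested.

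Other genes of the pathway were taken from 7 lists, of which 49 genes were tested in 2N cells, with 14 called lower and 2 higher, where 13.3% and 14.9% of all genes tested were. All 5 midzone kinesins (*Kif4*, *Kif14*, *Kif20a*, *Kif20b* and *Kif23*) were called lower in 2N cells, from −1.94 to −1.10. In 4N cells *Kif23*, the kinesin partner of RACGAP1, was at −1.09 and *Kif14*, which binds citron kinase, at −1.07, and these were the kinesins called. All 5 were called higher in 4N than in 2N cells with CYC065, from 1.04 to 1.42, and none with vehicle, from 0.44 to 0.73. Of the chromosomal passenger complex and *Plk1*, the kinase that primes ECT2 recruitment, 4 of 5 were called lower in 2N cells, with *Cdca8* at −0.99. In 4N cells *Birc5*, the survivin subunit, was called at −1.18 and *Plk1* at −1.14. All 5 were called higher in 4N than in 2N cells with CYC065, from 1.04 to 1.33.

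Among 8 regulators and relatives of RhoA, *Arhgap11a*, a GTPase-activating protein for RhoA, was at −1.29 in 2N, −0.72 in 4N and −1.43 in unsorted cells, and was called higher in 4N than in 2N cells with CYC065 at 1.11. *Arhgdia*, a GDP dissociation inhibitor, was called lower in all fractions, at −1.23, −1.35 and −1.24 in that order. *Rnd3*, an atypical small GTPase that antagonises RhoA signalling, was the gene of this list called higher with CYC065 than with vehicle, at 1.31 in 2N cells and 1.00 in unsorted cells, with 0.88 in 4N cells. The median of the list was 0.10 in 2N cells. Of 4 formins and scaffolds, the scaffold *Iqgap3* was called lower in each fraction, at −2.15, −1.39 and −1.92. The scaffold *Iqgap1*, at −0.10 in 2N cells, and the formins *Diaph1*, at −0.17, and *Diaph2*, at −0.81, were not called.

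Of 7 myosin II genes tested, *Myl9*, a regulatory light chain, was at −1.57 in 2N cells, −2.68 in 4N cells and −0.52 in unsorted cells. *Myl9* was also the only gene of the 50 tested in the 7 lists whose 4N to 2N ratio differed past 2-fold between treatments, at −1.11. That ratio was 0.44 with vehicle and −0.67 with CYC065. Of all 14482 genes tested, 3.45% passed 2-fold downwards and 3.58% upwards. Counts of *Myl9* were 667 to 995 in the unsorted libraries, 4386 to 6199 in sorted vehicle cells and 1115 to 1536 in sorted CYC065 cells. *Myl12a*, another light chain, was called lower in 4N cells at −1.03. None of 6 septins, the filament proteins that anillin recruits, was called in any comparison. Of the ESCRT and abscission list, *Chmp6* was called lower in every fraction, at −1.90, −1.82 and −1.79, and *Chmp2b* was called higher in 2N cells at 1.01. *Chmp4c*, an ESCRT-III subunit of the abscission checkpoint, was called higher in 4N than in 2N cells with CYC065 at 1.22 [0.51, 1.98], but its libraries held only 23 and 62 counts. In all, 9 of 50 genes of these lists were called lower in 4N cells, where 11.5% of all genes were, and none higher, where 14.2% were. In unsorted cells 14 of 49 were called lower, against 14% of all genes, and 1 higher, against 11.8%. Between 4N and 2N cells 13 of 50 were called higher with CYC065, against 1.6% of all genes, and 0 with vehicle, against 1.03%.

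**Figure D5:**
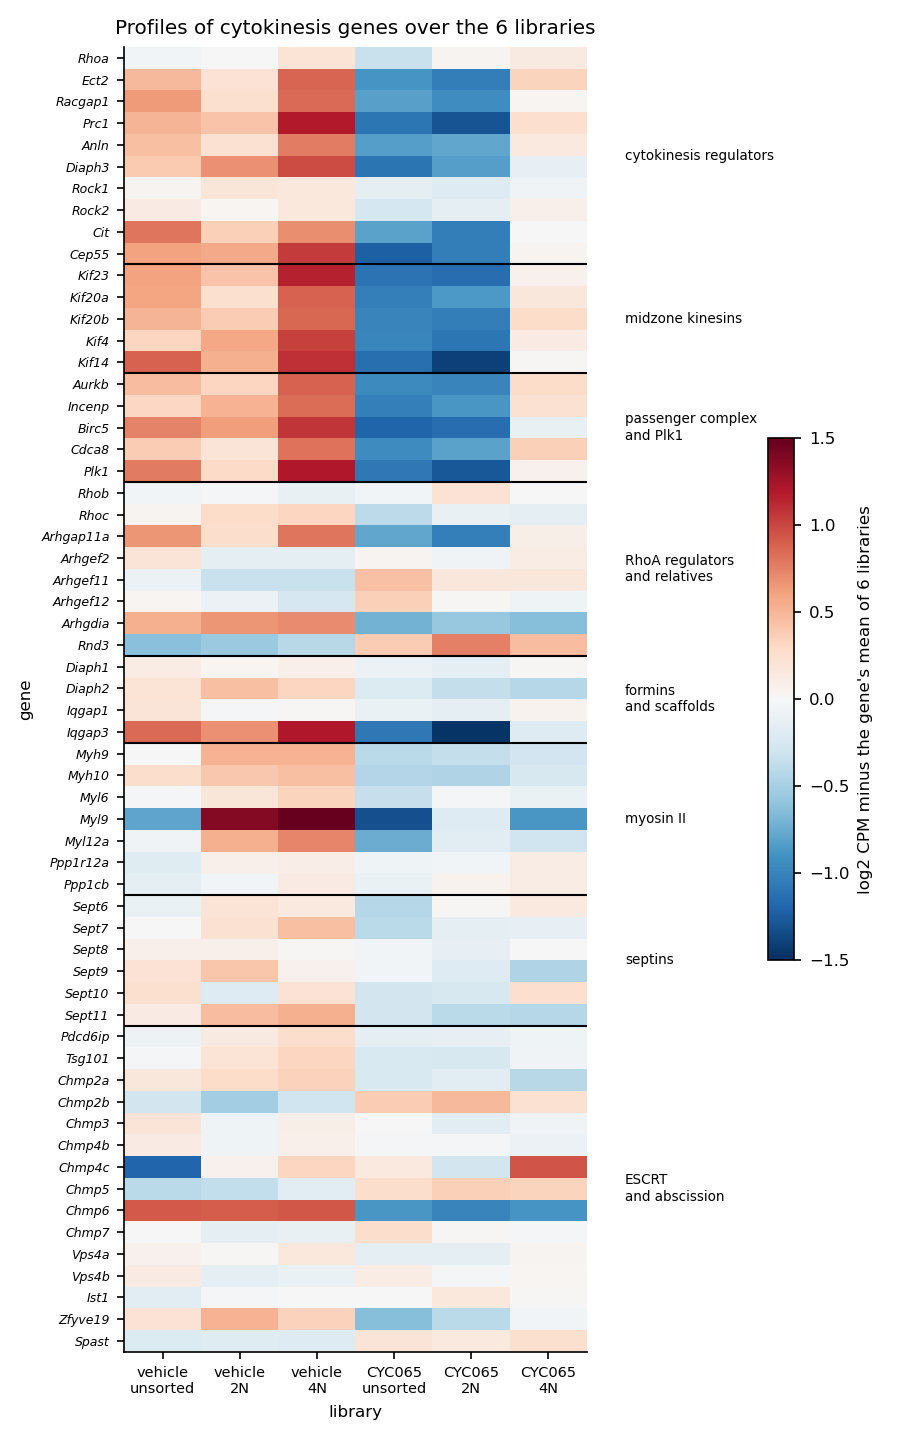
Log2 CPM minus the gene's mean of 6 libraries, as colour (red above, blue below, full colour at 1.5 or beyond), for the members and the tested genes of the 7 lists (rows) in each library (columns). Rows of the midzone kinesins and the passenger complex with *Plk1* are blue in unsorted and 2N cells with CYC065 and reddest in 4N cells with vehicle, as are those of most members, while *Rhoa*, *Rock1* and *Rock2*, with SDs of 0.14 to 0.17, are pale.

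The genes whose levels followed each member most closely were found among 9259 genes by the root-mean-square (RMS) difference of centred log2 CPM over the 6 libraries, a description over 6 points that share library and scaling. *Cep55* lay nearest to *Bub1*, a spindle checkpoint kinase, at 0.0434, *Racgap1* to *Arhgap11a* at 0.0546 and *Anln* to *Ncapd2*, a condensin subunit, at 0.0571. *Diaph3* lay nearest to *Rangap1* at 0.0588, *Ect2* to *Aurkb* at 0.0621, *Cit* to *Arhgap11a* at 0.0891 and *Prc1* to *Ccnb1*, cyclin B1, at 0.104. Among the members, *Rock1* and *Rock2* were 0.104 apart, *Rhoa* and *Rock2* 0.108, *Anln* and *Racgap1* 0.114, and *Racgap1* and *Cit* 0.114. The difference is not scaled by the spread of a gene. Genes of small SD, such as *Rock1* (0.14), *Rock2* (0.15) and *Rhoa* (0.17), therefore lie close together whether or not their levels move together. The nearest genes to *Rhoa* were *Cript*, *Mtpn* and *Gm3608*, to *Rock1* *Zfp106*, *Foxp1* and *Phrf1*, and to *Rock2* *Srrm1*, *Cnep1r1* and *Gsk3a*.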

How the data were processed

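The authors deposited expected counts per gene, made from ribosomal RNA-depleted, stranded, paired-end libraries. The submitters' processing notes name bcl2fastq 2.17, cutadapt 1.18, STAR 2.7.0f and RSEM 1.3.1; genes were GENCODE models on mm10. RSEM divides reads that match several loci by estimate, which gives fractional values. Counts of the 3 columns per condition were summed after a chi-square check over genes with whole counts that averaged 10 or more. Parts were taken as 1 library at 1.2 or below. Fractional genes gave 4.94 to 8.85 and were not part of that rule. TMM factors (edgeR 4.0.16) were 0.941 to 1.08. A gene was tested with at least 30 summed counts in a compared library, and counts under 3 were set to 3. Ratio intervals were Clopper-Pearson at 95% (SciPy 1.17.1), and normal for the difference of ratios. In simulated 2N libraries with Poisson counts and 3-fold changes, 200 of 200 changed genes were recovered and 5 unchanged ones called among 13079. The simulation held no variation between cultures, so it checks the calculation and gives no rate of false calls for these data.

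The members, lists and motifs were chosen with earlier results of these data known. Named genes were the 10 members, list genes called or among the 2 largest changes per direction in a list, and the 3 nearest profiles per member. *Myl12b* and *Sept2*, whose symbols stand on more than 1 gene identifier, were left out of the level comparisons but kept in the promoter search, and *Myh14* was under the filter. Lists of midzone kinesins, passenger complex, RhoA relatives, formins, myosin II, septins and ESCRT, and of G2/M and S phase, were used. Alternatives were other scalings, folds, filters and added counts, each column left out, edgeR with and without a replicate block, DESeq2 1.42.0, and a biological variation of 0.2 assumed in place of replicates.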

Additional observations from a re-analysis of the deposited data

Results flagged for a closer look

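*Rhoa* drew attention because its log2 ratio of CYC065 to vehicle had opposite signs in different fractions: 0.041 in 2N cells against −0.077 in 4N cells, and 0.041 in 2N cells against −0.30 in unsorted cells. The difference was not tested, since each condition is 1 library, and under library totals the 4N value was 0.065.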

How the results depend on the processing

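With 1 library per condition, intervals cover counting error only and the spread between cultures is unknown. Of the members in 4N cells, 2 were called lower with CYC065, 0 with library totals, 6 at 1.5-fold, 1 where the whole interval had to pass 2-fold, 1 by edgeR on the columns without and 1 with the replicate block, 1 by DESeq2, and 0 when a biological variation of 0.2 was assumed. Leaving out each column gave 1 to 2, *Cep55* being the gene lost (−0.96 without replicate 1 and −0.99 without replicate 2). For 4N against 2N cells, 1.5-fold gave 3 with vehicle in place of 0, and with CYC065 the 4 became 7 at 1.5-fold, 2 by whole intervals and 0 under that assumption. For the difference of ratios, 1.5-fold gave 4 in place of 0. In 2N cells the 7 became 6 in many settings, *Anln* being at −0.98 to −1.0 without each column. In unsorted cells the count was 7 throughout.

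Library totals moved the median of all genes from −0.071 to 0.067 in 2N and from −0.031 to 0.11 in 4N cells, and the share of calls that were higher from 52.8% to 62.9% and from 55.4% to 66.5%. Within the comparisons above, signs of members that turned were those of *Rhoa* and *Rock2* in 4N cells under library totals and of *Rock1* between 4N and 2N vehicle cells (0.00047 with DESeq2 size factors). In the order of levels, library totals also raised 4N cells with CYC065 above 2N vehicle cells for *Anln* and above unsorted vehicle cells for *Rock1*. Numbers in the labels did not pair columns across conditions. Correlations were −0.699 to 0.520 for the same number (median −0.016) and −0.546 to 0.684 for different numbers (median 0.0019). The replicate block gave 6, 1, 7, 0, 4 and 0 called members in the order of comparisons above, as without it. A CHR search from 200 bases before the start also found 5 members.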
